A study of Mus musculus with 4 samples.

Results

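Arginase, osteopontin and a set of repair, scavenger and monocyte genes were followed in single cells from mouse lungs bearing tumours, with and without focal irradiation of the lung. The 9 genes, of 20640 in the expression tables, were Arg1, Nos2, Spp1, Fn1, Chil3, Mrc1, Cx3cr1, Tmem176a and Tmem176b. They were listed with earlier results of the same data in view, so their levels at 4 Gy and at 0 Gy in macrophages, monocytes, dendritic cells and tumour cells are given as a description. All 9 had a column in all 4 tables.

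Female C57BL/6 mice received 150000 HKP1 cells by tail vein at 8 weeks of age. HKP1 is a mouse lung adenocarcinoma line without functional Trp53, so the tumours descend from 1 line, seeded in the lung from the blood. Mice were assigned on day 6 so that tumour burden, read by bioluminescence, was alike between cohorts, and were then given a mock treatment (0 Gy) or 4 Gy to the lung on each of 3 days, from day 10 to day 12. The lungs were collected between 24 and 48 h after irradiation ended and their viable cells sorted by CD45, the antigen shared by leukocytes. Each of the 4 libraries, 0 Gy CD45-negative, 0 Gy CD45-positive, 4 Gy CD45-negative and 4 Gy CD45-positive, was made by droplet capture and 3′ sequencing from 4 mice per treatment. There was 1 library per dose and sort. No difference between doses therefore has a replicate, and the 95% intervals below cover counting error only, not the spread between mice.

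Macrophages handle arginine by competing routes. Arginase 1, the product of Arg1, splits arginine into ornithine and urea, and ornithine feeds polyamine and proline synthesis, whereas the inducible nitric oxide synthase encoded by Nos2 turns arginine into nitric oxide and citrulline. Spp1 encodes osteopontin, a secreted glycoprotein that binds integrins and CD44, and Fn1 encodes fibronectin, a matrix protein that binds integrins too. Chil3 encodes a chitinase-like secreted protein of rodents and Mrc1 the mannose receptor CD206, both common markers of alternatively activated macrophages and both abundant in resident macrophages of the air spaces. Cx3cr1 encodes the fractalkine receptor, highest on patrolling nonclassical monocytes. Tmem176a and Tmem176b encode related membrane proteins with several transmembrane segments that are held to act as cation channels in endosomes and are known from dendritic cells.

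The annotated positions, in GRCm38 coordinates of GENCODE M21, place each gene on a chromosome of its own except the last pair. Arg1 lies on chromosome 10 (24915221 to 24927484, minus strand), Nos2 on chromosome 11 (78920787 to 78960254, plus strand) and Spp1 on chromosome 5 (104435118 to 104441050, plus strand). Fn1 lies on chromosome 1 (71585520 to 71653200, minus strand), Chil3 on chromosome 3 (106147554 to 106167564, minus strand), Mrc1 on chromosome 2 (14229392 to 14332057, plus strand) and Cx3cr1 on chromosome 9 (119901616 to 120069879, minus strand). Tmem176a (48840919 to 48847071, plus strand) and Tmem176b (48833818 to 48841496, minus strand) lie head to head on chromosome 6, and their annotated spans overlap by 578 bases.

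Because the levels of the Tmem176 pair followed each other across the classes described below, their start regions are shown. RefSeq windows on GRCm38.p6, from 250 bases before to 50 bases after a gene's start, were found for 6 of the 9 genes. The windows of Tmem176a (chr6:48841233-48841532, plus strand) and Tmem176b (chr6:48841325-48841624, minus strand) share 208 bases, read in opposite directions and printed in capitals, and the window of Spp1 (chr5:104434861-104435160, plus strand) is given beside them with its motif matches in capitals.
Tmem176a: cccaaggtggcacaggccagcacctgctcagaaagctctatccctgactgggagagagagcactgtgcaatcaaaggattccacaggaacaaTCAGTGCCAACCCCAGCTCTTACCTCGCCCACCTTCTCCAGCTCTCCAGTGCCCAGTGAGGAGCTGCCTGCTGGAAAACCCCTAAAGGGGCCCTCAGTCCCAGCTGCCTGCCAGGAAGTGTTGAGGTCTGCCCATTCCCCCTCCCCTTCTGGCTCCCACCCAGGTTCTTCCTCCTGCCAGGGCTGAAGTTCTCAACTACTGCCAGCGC
Tmem176b: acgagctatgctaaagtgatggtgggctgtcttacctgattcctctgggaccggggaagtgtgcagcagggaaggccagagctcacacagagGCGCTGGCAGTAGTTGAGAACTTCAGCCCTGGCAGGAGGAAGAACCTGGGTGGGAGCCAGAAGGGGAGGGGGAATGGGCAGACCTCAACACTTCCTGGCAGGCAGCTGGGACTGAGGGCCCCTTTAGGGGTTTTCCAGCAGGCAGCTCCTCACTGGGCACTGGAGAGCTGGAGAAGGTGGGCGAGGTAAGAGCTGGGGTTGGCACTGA
Spp1: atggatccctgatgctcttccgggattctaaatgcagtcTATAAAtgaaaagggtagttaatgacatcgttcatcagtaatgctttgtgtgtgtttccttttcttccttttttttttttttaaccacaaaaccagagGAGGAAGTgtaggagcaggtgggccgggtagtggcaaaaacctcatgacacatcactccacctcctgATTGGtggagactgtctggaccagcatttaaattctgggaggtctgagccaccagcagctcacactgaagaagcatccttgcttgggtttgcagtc
The Tmem176a window was 59.7% and the Tmem176b window 60.3% G or C, against 45.3% for Spp1 and a median of 52.7% over 32851 windows of all genes. Both strands were searched for TATAAA (bound by TBP), CCAAT (bound by NF-Y), GAGGAAGT (a form bound by PU.1, the factor of myeloid cells), TGANTCA (AP-1), TTCNNNGAA (STAT factors) and the wider STAT6 palindrome, and the Tmem176 windows held none of these 6. In the Spp1 window TATAAA stood 211 bases before the start, GAGGAAGT 113 bases before it, and CCAAT on the opposite strand 46 bases before it. Of all windows, 13.6% held TATAAA, 3.20% GAGGAAGT and 37.4% CCAAT. The share was 7.81% for TGANTCA, 8.30% for TTCNNNGAA and 6.95% for the STAT6 palindrome, and no stretch of the windows shown matched more than 1 motif. A match is a run of letters and not a measured binding site.

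The tables hold 5979, 5415, 4313 and 9608 cell barcodes for 0 Gy CD45-negative, 0 Gy CD45-positive, 4 Gy CD45-negative and 4 Gy CD45-positive, with a median of 1894 to 3096 UMIs (unique molecular identifiers, one per captured transcript) per barcode. Any pair of libraries shared 3 to 17 barcodes. Cells were put in a class when at least 3 of its 8 marker genes had a UMI, more than of any other list, with no list of another lineage reaching 3, which placed 83.8% to 92.7% of barcodes per library. None of the 9 genes was a marker. The leukocyte classes were read in the CD45-positive libraries and gave, at 0 and 4 Gy, 72 and 168 macrophages, 188 and 333 classical monocytes, 177 and 225 nonclassical monocytes and 44 and 56 type 2 conventional dendritic cells (cDC2). Tumour epithelial cells, read in the CD45-negative libraries, numbered 80 and 29. The cDC2 at 0 Gy and the tumour cells at 4 Gy are below the 50 cells asked of a class for a comparison and are described because the gene set was drawn up for them. Free RNA in a droplet also gives stray UMIs, and B cells, which should lack most of these transcripts, serve as the background of the CD45-positive libraries. Numbers of cells per class depend on the sort and were not compared.

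Genes outside a class's own marker list bear on its name. In the macrophage class Cd68 stood at 952 and 782 CPM (UMIs of the gene per 1000000 UMIs of the class) at 0 and 4 Gy, Lyz2 at 26823 and 24372, and Csf1r at 423 and 361. Marker lists of other cells were low in it: the 8 B cell markers summed to 38.6 and 31.5 CPM and the 8 neutrophil markers to 219 and 163 CPM. The 8 classical monocyte markers summed to 662 CPM at 0 Gy and 1135 CPM at 4 Gy, and Ly6c2, a defining marker of classical monocytes, was at 15.4 and 60.9 CPM. The 8 alveolar macrophage markers, of which 8 at 0 Gy and 6 at 4 Gy had a UMI, summed to 267 and 397 CPM, and Marco among them, a scavenger receptor, was at 9.26 and 139 CPM (interval of the ratio 6.78 to 41.4). Without the cells holding a Marco UMI the Arg1 ratio given below was 3.23 in place of 2.41. In the tumour class Ptprc, the gene for CD45, had 0 UMIs at both doses, and Epcam stood at 57.5 and 51.2 CPM. Msln, a mesothelial marker, stood at 75.8 and 154 CPM and Sftpc, an alveolar type II marker, at 26.1 and 73.9 CPM. Cdkn2a, which tumours without Trp53 often express, stood at 556 and 347 CPM, and Krt8 at 1372 and 2736 CPM. Both are gate markers of this class, so their presence does not bear on its name.

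**Figure D1:**
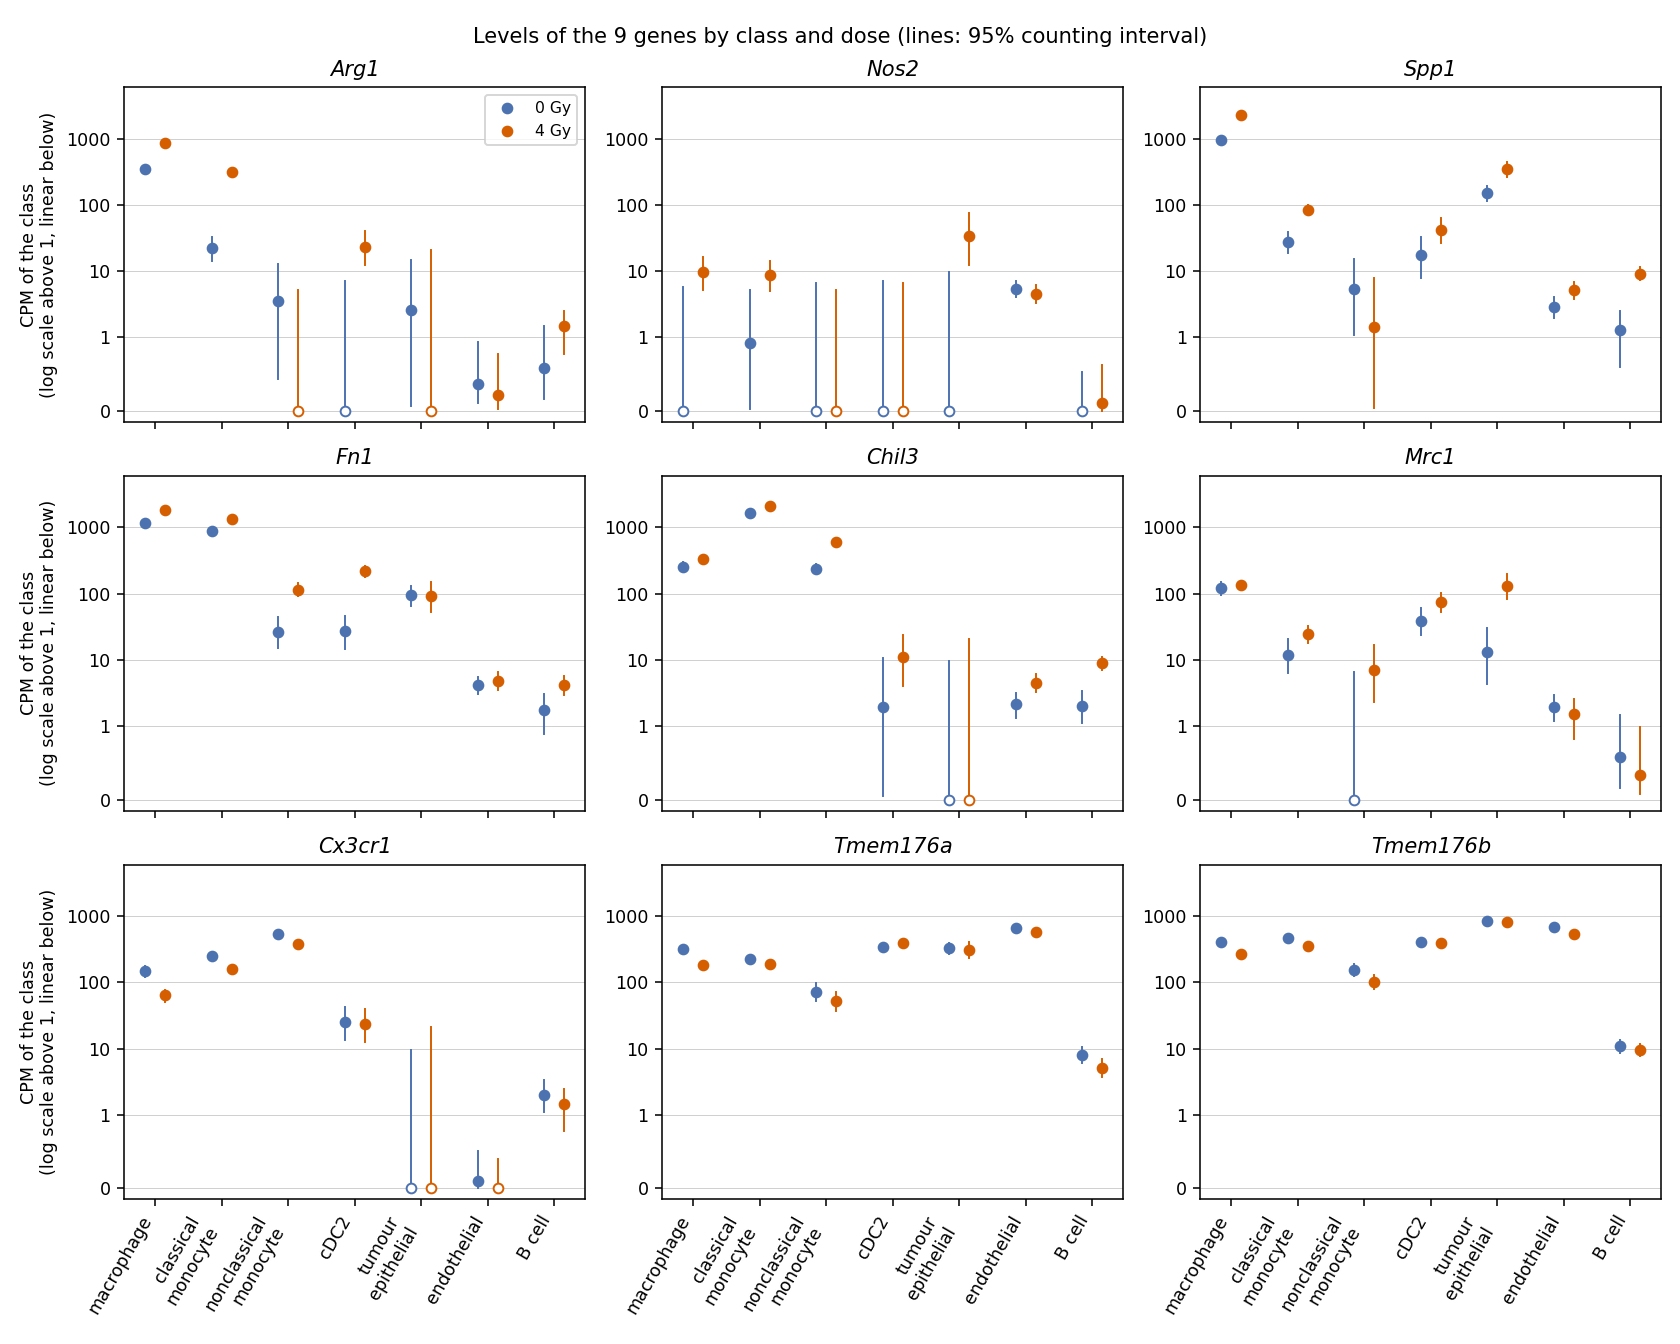
Level of each of the 9 genes, in CPM of the class (log scale above 1, linear below), by class at 0 Gy and 4 Gy, with lines for the 95% counting interval and open points for 0 UMIs. Arg1 is highest in macrophages at both doses, Cx3cr1 in nonclassical monocytes, and Tmem176a and Tmem176b are present in immune and non-immune classes alike.

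Macrophages at 4 Gy held more Arg1, Spp1 and Fn1 RNA and less Cx3cr1, Tmem176a and Tmem176b RNA than macrophages at 0 Gy. Arg1 stood at 355 CPM at 0 Gy (interval 310.5 to 404, from 230 UMIs) and 855 CPM at 4 Gy (808 to 904, from 1249 UMIs), a ratio of 2.41 (2.09 to 2.78). Spp1 stood at 958 CPM (884 to 1037) and 2302 CPM (2225 to 2381), a ratio of 2.40 (2.21 to 2.62). For Fn1 the levels were 1186 CPM (1104 to 1273) and 1827 CPM (1758 to 1897), a ratio of 1.54 (1.42 to 1.67). The counting intervals of the doses did not overlap for any of these 3 genes. Within a class of pooled cells, more cells with a transcript and more transcript per cell are mixed in such a ratio, and the shares of cells further down separate them in part.

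Nos2, the competing arginine enzyme, had 0 UMIs in the 72 macrophages at 0 Gy, which allows a level of up to 4.63 CPM, and 14 UMIs (9.58 CPM, interval 5.24 to 16.1) at 4 Gy. This is at least 2.07-fold higher against a floor of 3 UMIs, and 1 cell held 7 of the 14. Nos2 RNA was thus found in 5 of 168 macrophages at 4 Gy, where Arg1 RNA was found in 61.

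The common alternative activation markers differed less in the gated class. Chil3 stood at 256 CPM (219 to 298) and 333 CPM (304 to 364), a ratio of 1.30 (1.09 to 1.56). For Mrc1 the levels were 122 CPM (96.5 to 152) and 137 CPM (119 to 157), with a ratio of 1.12 whose interval, 0.861 to 1.48, includes 1. These ratios moved with the processing: that of Chil3 was 2.09 with classes taken from clusters, 1.70 with cells thinned to 1000 UMIs and 1.69 without cells holding a Marco UMI, and that of Mrc1 was 1.90 thinned and 1.54 as a mean of CPM over cells.

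Cx3cr1 stood at 147 CPM (119 to 179) at 0 Gy and 63.6 CPM (51.4 to 78.0) at 4 Gy, a ratio of 0.434 (0.323 to 0.584). Tmem176a stood at 315 CPM (273 to 361) and 185 CPM (163 to 208), a ratio of 0.587 (0.488 to 0.708). Tmem176b stood at 413 CPM (365 to 466) and 271 CPM (245 to 299), a ratio of 0.655 (0.560 to 0.768). All 3 were lower at 4 Gy without overlap of the counting intervals.

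A gene was counted as higher or lower when it differed at least 1.5-fold with a 95% interval clear of 1, among genes with at least 10 UMIs over both libraries. By that rule 4 of 9 genes were higher in macrophages (Arg1, Nos2, Spp1 and Fn1), where 4.19% of 10325 measured genes were, and 3 of 9 were lower (Cx3cr1, Tmem176a and Tmem176b), where 3.52% were. The genes were listed with these contrasts known, so the shares are printed for scale and nothing is read from them. The median log2 ratio over all measured genes in macrophages was 0.01.

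A small number of cells carried much of each secreted product. At 0 Gy, 50% of the Arg1 UMIs lay in 2 macrophages, with 106 of the 230 UMIs in a single cell, and at 4 Gy in 7 macrophages, with a highest cell at 126 UMIs. For Spp1 the same share lay in 2 cells at 0 Gy and in 6 at 4 Gy, with 756 of 3364 UMIs in 1 cell. Mrc1 was spread more widely, its 50% lying in 9 and 17 cells. At 0 Gy a single cell held 275 of the 769 Fn1 UMIs, 50% of which lay in 3 cells. Another limit of this kind holds for Cx3cr1 at 0 Gy, with 35 of 95 UMIs in 1 cell and 50% in 4 cells. The ratios of Arg1 and Spp1 at class level thus rest on few cells, above all at 0 Gy. The 0 Gy levels of Fn1 and Cx3cr1 also rest on few cells.

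**Figure D2:**
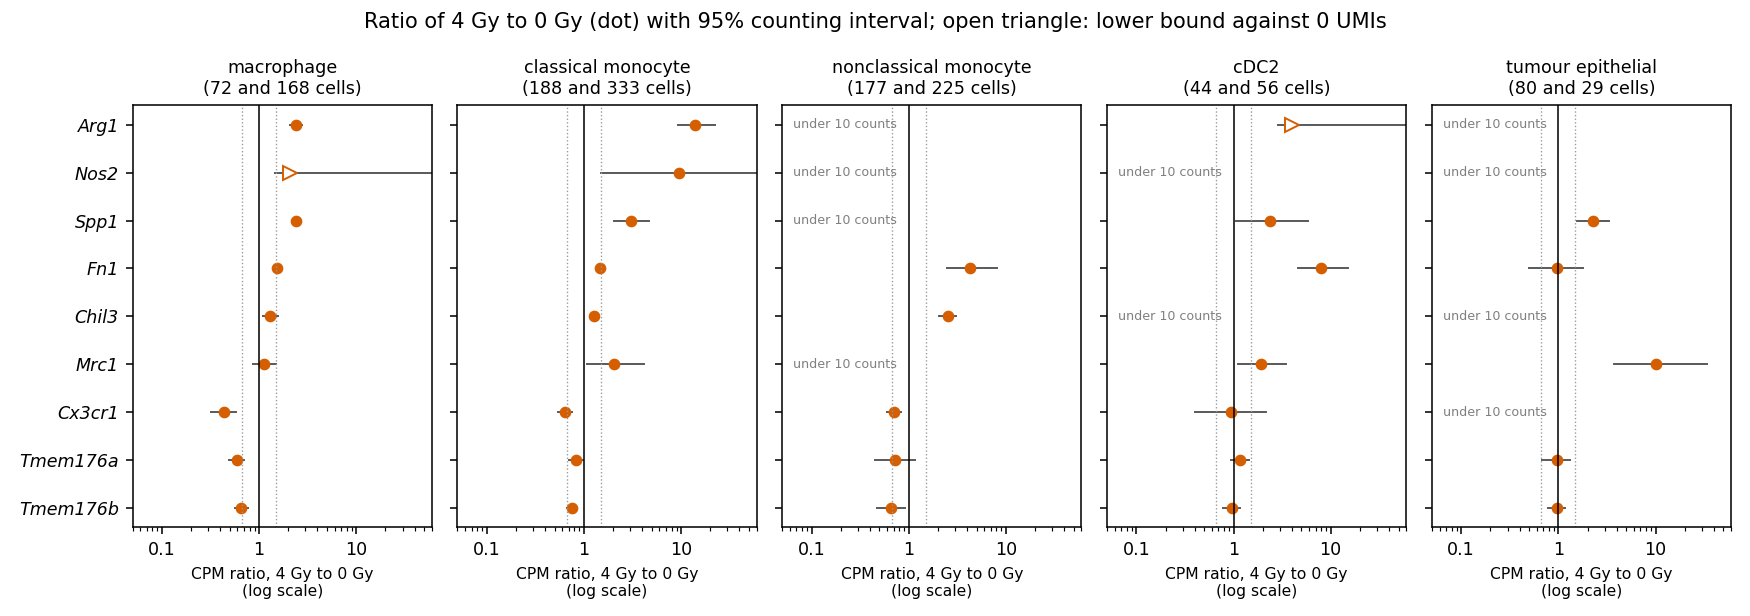
Ratio of the CPM at 4 Gy to that at 0 Gy for each gene in 5 classes (log scale), with lines for the 95% counting interval and open triangles for a lower bound against 0 UMIs. In macrophages Arg1, Spp1 and Fn1 lie above 1 and Cx3cr1, Tmem176a and Tmem176b below it, while in tumour cells the Tmem176 genes lie at 0.958 and 0.960.

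Shares of cells gave the same direction for the 6 genes after each cell was thinned to 1000 UMIs, which removes differences in depth (median UMIs per macrophage 7868 at 0 Gy and 8038 at 4 Gy). An Arg1 UMI was found in 5 of 66 macrophages at 0 Gy (7.58%, interval 2.51 to 16.8) and 33 of 152 at 4 Gy (21.7%, 15.4 to 29.1), against 11.1% and 36.3% before thinning. Fn1 was found in 34.8% (23.5 to 47.6) and 51.3% (43.1 to 59.5), and Spp1 in 18.2% (9.76 to 29.6) and 26.3% (19.5 to 34.1). The Spp1 intervals overlap widely, so the share of Spp1 cells was not separable between doses at this number of cells, although the level was 2.40-fold apart. Cx3cr1 was found in 19.7% (10.9 to 31.3) and 5.26% (2.30 to 10.1), without overlap. Tmem176a was found in 21.2% (12.1 to 33.0) and 14.5% (9.30 to 21.1), and Tmem176b in 22.7% (13.3 to 34.7) and 17.1% (11.5 to 24.0), both with overlap. Thinned B cells had an Arg1 UMI in 0.0464% and 0.0921%, an Spp1 UMI in 0.0464% and 0.430%, and an Fn1 UMI in 0.232% and 0.491%. These shares were far under those of macrophages, with median depths of 2751 and 2240 UMIs per B cell. In this background Spp1 was itself higher at 4 Gy, at 1.30 and 9.19 CPM (ratio 7.09, 3.56 to 16.1). Chil3 stood there at 2.02 and 8.85 CPM (4.39, 2.47 to 8.40). The part of stray UMIs in the ratios of classes with low levels was not tested.

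Few macrophages held UMIs of both Arg1 and Spp1. In thinned cells at 4 Gy, 11 of 152 macrophages (7.24%, interval 3.67 to 12.6) had UMIs of both, 22 (14.5%) of Arg1 only, 29 (19.1%) of Spp1 only and 90 (59.2%) of neither. At 0 Gy the same groups held 1, 4, 11 and 50 of 66 macrophages, or 1.52%, 6.06%, 16.7% and 75.8%. With all UMIs counted, both were found in 6 of 72 macrophages at 0 Gy (8.33%) and 29 of 168 at 4 Gy (17.3%), and 28 of those 29 also had an Fn1 UMI. Thinned or not, the share with both genes was higher at 4 Gy, with intervals that overlap between doses.

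**Figure D3:**
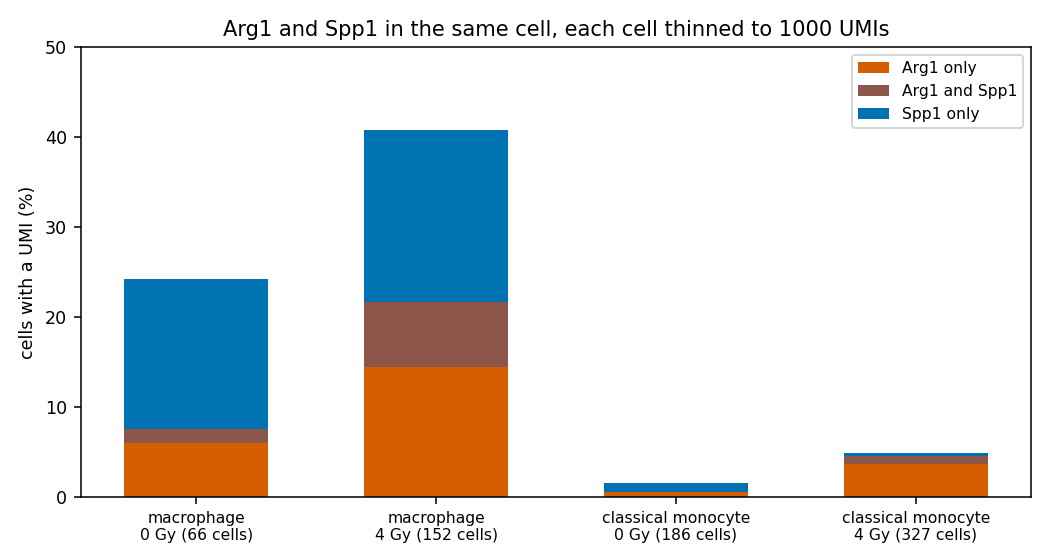
Share of cells, in percent of macrophages or classical monocytes thinned to 1000 UMIs, with a UMI of Arg1 and Spp1, of Arg1 only and of Spp1 only, at each dose (stacked bars). In macrophages the Arg1-only part is 6.06% at 0 Gy and 14.5% at 4 Gy, and the part with both genes 1.52% and 7.24%.

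Fn1 RNA was found beside Arg1 RNA more often than apart from it. Of the 33 thinned macrophages with an Arg1 UMI at 4 Gy, 29 had an Fn1 UMI (87.9%, interval 71.8 to 96.6), against 49 of the 119 without one (41.2%, 32.2 to 50.6). Spp1 was found in 11 of the 33 (33.3%, 18.0 to 51.8) and 29 of the 119 (24.4%, 17.0 to 33.1), whose intervals overlap. Both thinned macrophages with a Nos2 UMI at 4 Gy also had Arg1 and Fn1 UMIs.

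Cx3cr1 at 0 Gy and Tmem176a at 4 Gy were seldom found beside Spp1, with intervals that overlap in both comparisons. At 0 Gy none of the 13 thinned macrophages with a Cx3cr1 UMI had an Spp1 UMI, against 12 of the 53 others (22.6%, interval 12.3 to 36.2). At 4 Gy a Tmem176a UMI was found in 1 of the 40 macrophages with an Spp1 UMI (2.50%, 0.0633 to 13.2) and 21 of the 112 without (18.8%, 12.0 to 27.2). Cx3cr1 went with Mrc1 instead at 0 Gy, where 5 of the 7 macrophages with an Mrc1 UMI had a Cx3cr1 UMI (71.4%, 29.0 to 96.3), against 8 of the other 59 (13.6%, 6.04 to 25.0). At 4 Gy that pair was found together in 1 cell, with 20 cells holding Mrc1 and 8 holding Cx3cr1. Tmem176b was found in 7 of the 14 cells with Tmem176a at 0 Gy and 9 of the 22 at 4 Gy, against 8 of 52 and 17 of 130 of the cells without it. These shares come from few UMIs per cell, and 36 pairs of genes were computed in each class and dose.

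Clusters made without the 9 genes, and looked at after the class values were known, split the macrophages into a pair of groups. Cluster 33 was marked by high Apoe (15071 CPM at 0 Gy and 16564 CPM at 4 Gy), which encodes a lipid carrier, and Fabp5 (2335 and 2864 CPM), a fatty acid binding protein. Cluster 31 had C1qa, a complement component of macrophages, at 1959 and 2043 CPM, and Ccr2, the receptor that brings monocytes into tissue, at 706 and 599 CPM, where cluster 33 had 162 and 134 CPM of Ccr2. Of the gated macrophages, 58 of 72 (80.6%) at 0 Gy and 104 of 168 (61.9%) at 4 Gy fell in cluster 33, and 10 (13.9%) and 58 (34.5%) in cluster 31. The make-up of the macrophage class therefore differed between the libraries, and whether that difference comes from the dose cannot be told apart from a difference between the 2 libraries.

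Arg1 and Nos2 belonged to cluster 31. Over all its 50 and 208 cells Arg1 stood at 455 CPM at 0 Gy and 1477 CPM at 4 Gy, a ratio of 3.24 (2.89 to 3.66), while in cluster 33 it stood at 128 and 173 CPM, a ratio of 1.35 (1.07 to 1.70). Of the Arg1 UMIs in gated macrophages, 53.5% at 0 Gy and 87.1% at 4 Gy lay in cluster 31. Nos2 had 0 UMIs in cluster 31 at 0 Gy and 94 (38.8 CPM) at 4 Gy, against 1 and 3 UMIs in cluster 33. Within gated macrophages, Arg1 went from 856 to 1937 CPM in cluster 31 (ratio 2.26, 1.88 to 2.75) and from 229 to 189.7 CPM in cluster 33 (ratio 0.827, 0.642 to 1.07). The 0 Gy level in cluster 31 rests on 10 cells and 123 UMIs, 106 of them in 1 cell. Among gated macrophages of cluster 33, 5.17% of 58 cells at 0 Gy and 17.3% of 104 cells at 4 Gy had an Arg1 UMI. There the share of cells was higher at 4 Gy while the level was not. The 0 Gy level in cluster 33 rests on few cells too, with all 104 UMIs in that 5.17% of cells.

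Osteopontin belonged to cluster 33. There Spp1 stood at 1036 CPM at 0 Gy and 2785 CPM at 4 Gy, a ratio of 2.69 (2.50 to 2.90), and 98.6% and 83.1% of the Spp1 UMIs of gated macrophages lay in it. In cluster 31 Spp1 stood at 25.4 CPM (17 UMIs) and 617 CPM (1495 UMIs), a ratio of 24.3 (15.1 to 41.9). So Spp1 was higher at 4 Gy in both clusters, at levels that remained lower in cluster 31. Fn1 was at 1540 and 2216 CPM in cluster 31 (ratio 1.44) and 738 and 1089 CPM in cluster 33 (ratio 1.48). Among gated cells alone Fn1 had a ratio of 0.905 (0.812 to 1.01) in cluster 31, from 10 and 58 cells, and 1.83 (1.62 to 2.08) in cluster 33. Chil3 over all cells of cluster 33 stood at 355 and 1111 CPM, a ratio of 3.13 (2.76 to 3.55), above that of Spp1. Its ratio among gated cells there was 1.46 (1.20 to 1.79). In cluster 31 Chil3 had a ratio of 1.39 (1.16 to 1.67) over all cells and 0.957 (0.621 to 1.52) among gated cells.

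The lower genes divided by cluster too. Cx3cr1 was at 119.7 and 55.3 CPM in cluster 33, a ratio of 0.462 (0.341 to 0.625), and at 68.6 and 60.3 CPM in cluster 31, a ratio of 0.878 (0.626 to 1.25). Among gated macrophages alone Cx3cr1 had a ratio of 0.567 in cluster 33, while in cluster 31 it had 0 UMIs in 10 cells at 0 Gy and 28 UMIs (49.9 CPM) in 58 cells at 4 Gy, the opposite direction. Tmem176a had a ratio of 0.426 (0.365 to 0.497) in cluster 31, from 410.3 to 175 CPM, and 0.609 (0.488 to 0.761) in cluster 33. Tmem176b had a ratio of 0.426 (0.374 to 0.486) in cluster 31, from 564 to 240.2 CPM, and 0.737 (0.609 to 0.893) in cluster 33. Over all cells of cluster 31 S100a8, a neutrophil transcript, stood at 233 and 616 CPM, and Cd79a, a B cell transcript, at 142 and 107 CPM, so these clusters hold cells that the gate leaves out, and the part of such cells in the ratios was not tested. In gated macrophages of cluster 31 S100a8 was at 27.8 and 42.7 CPM and Cd79a at 0.

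**Figure D4:**
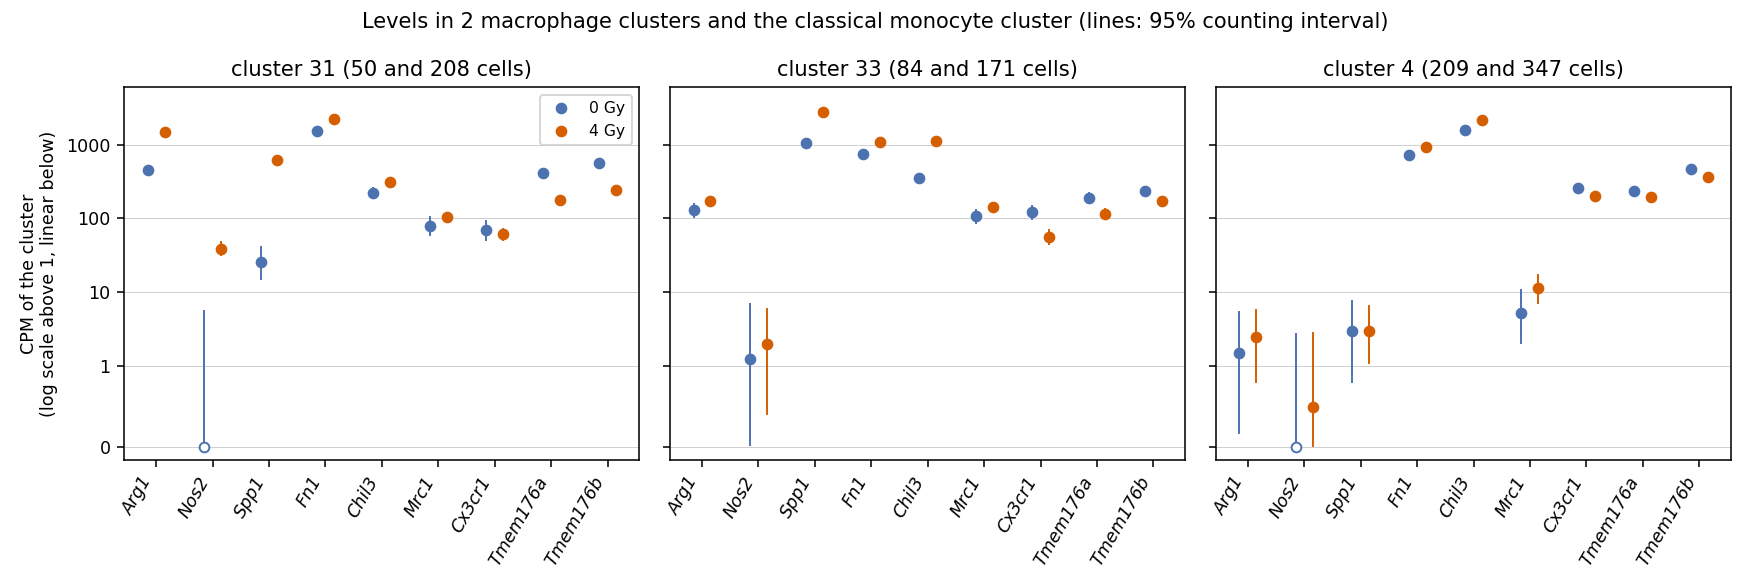
Level of the 9 genes at 0 Gy and 4 Gy, in CPM of all cells of cluster 33, cluster 31 and cluster 4 (log scale above 1, linear below), with lines for the 95% counting interval. Arg1 and Nos2 at 4 Gy stand highest in cluster 31 and Spp1 in cluster 33, while cluster 4, which holds most classical monocytes, has 2.45 CPM of Arg1 and 2.94 CPM of Spp1.

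Classical monocytes, the circulating precursors of many tissue macrophages, had the larger ratio for Arg1 from a low level. Arg1 stood at 22.0 CPM at 0 Gy (interval 14.1 to 32.8) and 310.4 CPM at 4 Gy (285 to 337), a ratio of 14.1 (9.38 to 22.2). These UMIs came from 4 of 188 cells at 0 Gy and 26 of 333 at 4 Gy. Spp1 stood at 27.5 CPM (18.6 to 39.3) and 83.9 CPM (71.1 to 98.4), a ratio of 3.05, with 23 of 30 UMIs in 1 cell at 0 Gy and 85 of 152 in 1 cell at 4 Gy. Nos2 had 1 and 16 UMIs, 15 of the latter in 1 cell, and Mrc1 stood at 11.9 and 24.3 CPM, a ratio of 2.04 (1.08 to 4.12). Few cells, then, set these 4 ratios.

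The genes that most classical monocytes carried moved by smaller factors. Fn1 stood at 898 CPM (843 to 956) and 1324 CPM (1272 to 1378), a ratio of 1.47 (1.37 to 1.59), and was found before thinning in 80.3% and 82.0% of cells. Chil3 stood at 1666 CPM (1591 to 1745) and 2104 CPM (2038 to 2172), a ratio of 1.26 (1.19 to 1.34). Cx3cr1 stood at 252 CPM (223 to 284) and 160.2 CPM (142 to 179.7), a ratio of 0.635 (0.536 to 0.751), and was found in 24.7% and 16.8% of thinned cells. Tmem176a had a ratio of 0.837 (0.709 to 0.990) and Tmem176b of 0.750 (0.667 to 0.844). By the 1.5-fold rule 4 of 9 genes were higher (Arg1, Nos2, Spp1 and Mrc1; 5.10% of 10594 measured genes) and 1 was lower (Cx3cr1; 2.43%).

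The Arg1 of the classical monocyte class lay almost wholly in cluster 31, which mixed monocytes and macrophages. Of the 258 cells of that cluster over both doses, 26.4% were gated macrophages, and Ly6c2 stood in it at 154 and 231 CPM. Of the 562 Arg1 UMIs of the class at 4 Gy, 557 (99.1%) were in its 40 cells that fell in cluster 31. The same cells held 144 of the 152 Spp1 UMIs and 15 of the 16 Nos2 UMIs. At 0 Gy, 23 of 24 Arg1 UMIs were in the 13 cells of the class in cluster 31. Cluster 4, which held 151 of 188 cells at 0 Gy and 254 of 333 at 4 Gy, had Arg1 at 1.46 and 2.45 CPM over all its cells, close to the B cell levels of 0.576 and 1.46 CPM. C1qa, a macrophage marker, stood in the class at 86.3 and 190.0 CPM, while the 8 macrophage markers together, all with a UMI at both doses, summed to 4051 and 3264 CPM. The 8 neutrophil markers summed to 316 CPM at 0 Gy and 735 CPM at 4 Gy. The part of these markers in the Arg1 ratio was not tested. Fn1 in cluster 4 was still 1.30-fold higher (1.20 to 1.40), Chil3 1.33-fold higher (1.26 to 1.40) and Cx3cr1 lower, at 0.773 (0.668 to 0.894).

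Single monocytes showed the same division. Of the 15 thinned classical monocytes with an Arg1 UMI at 4 Gy, 14 had an Fn1 UMI (93.3%, interval 68.1 to 99.8) and 1 had a Chil3 UMI (6.67%, 0.169 to 31.9). Among the 312 without Arg1, 55.8% had Fn1 and 62.2% (56.5 to 67.6) had Chil3. Cx3cr1 was found in 0 of the 15 (interval up to 21.8) and 17.6% (13.6 to 22.3) of the 312. Arg1 and Chil3 are both used as marks of alternative activation.

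Nonclassical monocytes, which patrol the vessel wall and are defined by high Cx3cr1, had little or no Arg1 and Nos2. Arg1 had 2 UMIs in 177 cells at 0 Gy and 0 in 225 at 4 Gy, which allows up to 4.25 CPM, and Nos2 had 0 at both doses. Cx3cr1 stood at 537 CPM (478 to 601) and 377 CPM (333 to 425), a ratio of 0.702 (0.593 to 0.830), and was found in 41.9% (33.8 to 50.3) and 28.9% (22.7 to 35.6) of thinned cells. Lower Cx3cr1 at 4 Gy was therefore seen in macrophages and in both monocyte classes, although in this class it stayed short of the 1.5-fold size.

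Fn1 in nonclassical monocytes stood at 26.6 CPM (15 UMIs) and 115 CPM (81 UMIs), a ratio of 4.32 (2.47 to 8.07), and Chil3 at 237 and 595 CPM, a ratio of 2.51 (2.06 to 3.07). One cell held 133 of the 420 Chil3 UMIs at 4 Gy. In clusters in place of gates Fn1 had a ratio of 1.19 and Chil3 of 1.11, so neither passed there. Tmem176a was at 72.7 and 52.4 CPM, a ratio of 0.721 (0.450 to 1.15), and Tmem176b at 154 and 102 CPM, a ratio of 0.662 (0.477 to 0.915). Of 5 measured genes 2 were higher (3.29% of 8915 measured genes) and 1, Tmem176b, was lower (3.67%).

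The Tmem176 ratios of cDC2 lay near 1 in the summed counts. In these cells, which present antigen to helper T cells, Tmem176a stood at 337 CPM (289 to 392) in 44 cells at 0 Gy and 393 CPM (342 to 448) in 56 cells at 4 Gy, a ratio of 1.16 (0.949 to 1.43). Tmem176b stood at 411 and 393 CPM, a ratio of 0.955 (0.787 to 1.16). With cells thinned to 1000 UMIs the ratios were 2.21 for Tmem176a, with a UMI in 16.3% and 32.1% of cells, and 0.608 for Tmem176b. Both intervals of the summed counts include 1, where those of macrophages lie below it, but the difference between the classes was not tested. Cx3cr1 was at 25.2 and 23.5 CPM, a ratio of 0.933 (0.398 to 2.18).

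The macrophage products were higher in cDC2 at 4 Gy, from levels near 0, and so were macrophage markers. Arg1 had 0 UMIs at 0 Gy and 13 (23.5 CPM) at 4 Gy, at least 4.04-fold higher against the floor, with 8 in 1 cell. Fn1 was at 27.2 CPM, all 14 UMIs in 1 cell, and 217 CPM, with 87 of 120 UMIs in 1 cell. Spp1 was at 17.5 and 41.6 CPM (ratio 2.38, 1.06 to 5.85) and Mrc1 at 38.8 and 74.2 CPM (ratio 1.91, 1.10 to 3.45). In the same cells the 8 macrophage markers, of which 7 at 0 Gy and 8 at 4 Gy had a UMI, summed to 40.7 CPM and 655 CPM, and C1qa went from 5.82 to 172 CPM. Their part in these ratios was not tested. At 4 Gy, 5 of the 56 cDC2 fell in cluster 31 and 2 in cluster 33, against 1 and 0 of 44 at 0 Gy. Of 7 measured genes 4 were higher (5.79% of 8170 measured genes) and 0 lower (3.48%). With at least 2 more markers than any other list asked of a cell 0 were higher, a setting for which the share of all genes was not recorded.

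Tumour cells carried RNA of osteopontin and the Tmem176 genes and almost none of Arg1. Spp1 stood at 152 CPM (115 to 196, from 58 UMIs in 80 cells) at 0 Gy and 347 CPM (265 to 446, from 61 UMIs in 29 cells) at 4 Gy, a ratio of 2.29 (1.57 to 3.34). A single cell held 27 of the 61 UMIs, and when each cell's CPM was given equal weight the ratio was 1.20, against 7.51 with classes taken from clusters. Arg1 had 1 UMI at 0 Gy and 0 at 4 Gy, and Chil3 and Cx3cr1 had 0 at both doses, which allows up to 17.1 CPM at 4 Gy. Fn1 was at 94.1 and 91.0 CPM, a ratio of 0.968 (0.501 to 1.79).

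Tmem176a stood at 327 CPM (272 to 389) and 313 CPM (236 to 407) in tumour cells and Tmem176b at 841 CPM (752 to 938) and 808 CPM (680.3 to 952), with ratios of 0.958 (0.685 to 1.33) and 0.960 (0.782 to 1.17). With thinned cells the ratio of Tmem176a was 0.284, with a UMI in 22 of 61 cells (36.1%) and 3 of 23 cells, and that of Tmem176b was 0.766, while a mean of CPM over cells gave 1.34 for Tmem176a. Mrc1 had 5 UMIs at 0 Gy and 23 at 4 Gy, or 13.1 and 131 CPM, a ratio of 10.0 (3.72 to 33.7) that was 2.65 with thinned cells and 18.7 with at least 4 markers per cell, and Nos2 had 0 and 6 UMIs (34.1 CPM at 4 Gy), in 4 cells and under the 10 UMIs asked of a measured gene. Of the 8 macrophage markers 1 had a UMI at 0 Gy (20.9 CPM) and none at 4 Gy, with C1qa, C1qb and C1qc at 0, while the 8 alveolar type I markers summed to 52.3 and 341 CPM. The part of the latter in the Mrc1 and Nos2 values was not tested. Of 5 measured genes 2 were higher (5.94% of 6277 measured genes) and 0 lower (4.33%).

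Ranked by level, Arg1 at 4 Gy came first in macrophages and then in classical monocytes, followed by cDC2 at 23.5 CPM and neutrophils at 22.5 CPM, whose intervals overlap. Spp1 at 4 Gy came first in macrophages, then in alveolar macrophages at 678 CPM (29 cells), tumour cells at 347 CPM and neutrophils at 156 CPM, the last overlapping fibroblasts at 124 CPM (20 cells). Fn1 at 4 Gy was highest in fibroblasts (3333 CPM), then macrophages and classical monocytes. Chil3 was highest in alveolar macrophages at 4 Gy, at 17617 CPM with a UMI in 29 of 29 cells, and so was Mrc1, at 794 CPM. Below them Mrc1 in macrophages (137 CPM) and in tumour cells (131 CPM) overlapped. At 0 Gy the alveolar macrophage class had 14 cells and is not compared.

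Cx3cr1 at 4 Gy came first in nonclassical monocytes and then in classical monocytes, followed by NK cells at 74.3 CPM and macrophages at 63.6 CPM, whose intervals overlap. At 0 Gy macrophages stood above NK cells, at 147 and 69.6 CPM, without overlap. Tmem176a at 4 Gy ran from fibroblasts (954 CPM) over ciliated cells (605 CPM, 20 cells) and endothelial cells (569 CPM), whose intervals overlap, to cDC2 (393 CPM), tumour cells (313 CPM), alveolar type II cells (247 CPM, 27 cells), classical monocytes (191 CPM) and macrophages (185 CPM), and from cDC2 downwards each overlapped the next. At 0 Gy cDC2, tumour cells and macrophages, at 337, 327 and 315 CPM, could not be ordered by their intervals. Nos2 was found at 5.43 and 4.53 CPM in 5256 and 3815 endothelial cells, a ratio of 0.835 (0.548 to 1.26).

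Endothelial cells, which numbered 5256 and 3815, put the precision of the Tmem176 values in scale. Tmem176a stood at 669 CPM (653 to 684) and 569 CPM (554 to 585), a ratio of 0.852 (0.822 to 0.883), and Tmem176b at 677 and 540.5 CPM, a ratio of 0.799 (0.770 to 0.828). Of 7 measured genes 2, Spp1 and Chil3, were higher (5.39% of 16024 measured genes), at 5.18 and 4.53 CPM at 4 Gy, and 0 were lower (3.13%). B cells stood at 9.19 and 8.85 CPM at 4 Gy, but in the CD45-positive library, so they do not give the background of the CD45-negative one.

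Across 19 levels of class and library with at least 50 cells, Tmem176a and Tmem176b followed each other with a Pearson correlation of 0.97 on log2(CPM + 5), the highest of the 36 pairs. Their annotated spans overlap at the starts of both genes, while the libraries were made by 3′ sequencing, which reads the other ends. No source used here gives the counting rule for strand, and whether any reads of the shared stretch were split between them was not tested. Among 6910 other genes the most like Arg1 were C3ar1 (0.962), C1qa and C1qc, and the most like Spp1 were C3ar1 (0.860), Cd63-ps and C1qc. C1qa and C1qc are markers used in the gate. The most like Fn1 were Cebpa (0.946), Cstb and Fcgr1, the most like Chil3 were Klra2 (0.977), Lyz1 and Gm36161, and the most like Mrc1 were Sh3pxd2b (0.961), Anpep and Axl. For Cx3cr1 they were Tnfrsf1b (0.924), Metrnl and Capzb, for Tmem176a Plxnd1 (0.934), Tmem205 and F11r, for Tmem176b Tmem205 (0.924), Nfix and Plxnd1, and for Nos2 Ccl24 (0.720), Napa and Vps26c. The levels share 4 libraries and cell types, so these values order genes and test nothing.

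For scale beside the gene lists below, 4.19% of all measured genes were higher and 3.52% lower in macrophages, with a median log2 ratio of 0.01. In classical monocytes 5.10% were higher and 2.43% lower, with a median of 0.05. The other genes of arginine and polyamine metabolism moved little beside Arg1 in macrophages. Of 11 measured, Asl, which makes arginine from argininosuccinate, was higher (13.9 and 34.9 CPM, ratio 2.51) and Slc7a1, a carrier of arginine into the cell, was lower (27.8 and 10.3 CPM, ratio 0.370), with a median log2 ratio of -0.07 over the list. In classical monocytes Ass1, the enzyme before Asl, was higher (17.4 and 34.2 CPM, ratio 1.96), as was Slc7a2, another arginine carrier, from 0 to 15 UMIs, and none of 10 was lower.

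Of 8 measured genes for alternative activation and repair, 2 were higher in macrophages and none lower, with a median log2 ratio of 0.29. Mmp12, a matrix protease of macrophages, stood at 92.6 and 277 CPM (ratio 2.99), and Pdcd1lg2, which encodes the checkpoint ligand PD-L2, at 15.4 and 32.2 CPM (ratio 2.08). In classical monocytes 3 of 9 were higher, Pdcd1lg2, Mmp12 and Vegfa (ratio 2.41 for the last), and none lower. The lipid-associated and phagocytic list had 0 of 12 higher and 1 lower in macrophages, with a median log2 ratio of -0.17. The lower gene was Gpnmb, a glycoprotein of lysosome-rich macrophages, at 1588 and 977 CPM (ratio 0.616).

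The inflammatory list split in macrophages, with 2 of 10 measured genes higher and 2 lower. Ccl4, a chemokine, had 1 and 34 UMIs (ratio 15.1, 2.53 to 613), and Acod1, the itaconate enzyme, stood at 9.26 and 40.4 CPM (ratio 4.36). Cxcl10, an interferon-induced chemokine, stood at 571 and 80.1 CPM (ratio 0.140) and Tnf at 23.1 and 6.84 CPM (ratio 0.296). In classical monocytes Il1b stood at 221 and 546 CPM (ratio 2.47) and Cxcl10 at 167 and 279 CPM (ratio 1.67). Il1a was also higher there, and Cxcl9, Ccl4 and Ccl3 were lower.

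Receptors for osteopontin and fibronectin did not pass in either direction, 0 of 7 measured in macrophages and 0 of 7 in classical monocytes. Of the fractalkine and growth factor list 0 of 4 measured passed in both classes, namely Csf1, Csf1r, Csf2ra and Csf2rb. Cx3cl1, the gene for fractalkine itself, fell short of 10 UMIs in both classes and was not measured. Of 10 measured transcription factors held to act on Arg1 or Nos2, Hif1a, the oxygen-sensing factor, was higher in macrophages at 109.5 and 214 CPM (ratio 1.95), and the other 9 did not pass. None of the 10 passed in classical monocytes.

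Split by Arg1, macrophages at 4 Gy differed from each other in these lists. In the 33 thinned cells with an Arg1 UMI, Fn1 stood at 4667 CPM against 1218 CPM in the 119 without (ratio 3.83, interval 3.03 to 4.84), Il1b, a pyrogenic cytokine, at 1667 against 513 CPM (3.25, 2.22 to 4.76), Hif1a at 424 against 92.4 CPM (4.59, 1.94 to 11.2) and Cebpb, a factor known to act on the Arg1 enhancer, at 2273 against 1261 CPM (1.80, 1.35 to 2.39). Several lysosomal and lipid-handling transcripts were lower beside Arg1 at 4 Gy, while others, such as Plin2 (0.863, 0.477 to 1.48) and Lpl (1.03, 0.247 to 3.28), were not clear of 1. Gpnmb stood at 182 against 966 CPM (ratio 0.188, 0.0676 to 0.422), Cd63 at 303 against 1210 CPM, Lgals3 at 1788 against 4017 CPM (0.445, 0.334 to 0.584) and Trem2, a lipid-sensing receptor, at 212 against 555 CPM. C1qa, at 3212 against 2739 CPM, had a ratio of 1.17 (0.933 to 1.46). All 26 Marco UMIs of these cells lay beside Arg1. The split uses Arg1 itself and cells of 1 library, so it describes those cells and not the dose. With 5 Arg1 cells at 0 Gy, the intervals of Gpnmb (0.279 to 1.76), Cd63 (0.278 to 2.16), Lgals3 (0.546 to 1.68) and Trem2 (0 to 1.21) included 1. Those of Ctsd (0.249 to 0.865) and Apoe (0.499 to 0.895) lay below it. At 4 Gy 87.1% of the Arg1 UMIs of gated macrophages lay in cluster 31, so the split overlaps with the division by cluster, and their parts were not separated.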

How the data were processed

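Log2 values, log2(CPM + 1) per cell for 20640 genes, are what the authors deposited, in a table for each library. STAR, Partek, Seurat and the build mm10 stand in the submitters' processing notes, without roles or versions. CPM totals were the same in each cell, and dividing by the smallest step gave whole UMIs within 0.02 steps for at least 99.9993% of values, 12448164 to 36423571 UMIs per library. Cells were gated on 21 lists of 8 markers, 166 of 168 markers being in the tables. For each class in a library UMIs were added up and scaled to CPM, with exact Poisson intervals for levels, exact conditional binomial intervals for ratios and Clopper-Pearson intervals for shares (95%). With 1 library per dose and sort no test was possible and no p-value was computed. List medians are log2 ratios of CPM + 5.

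The members and lists were chosen with earlier results of these data known. Named genes are all 9 members, in each list up to 4 genes past the 1.5-fold rule with the largest log2 ratio, the 3 genes most like each member, and markers of other classes. Genes of the Arg1 split were named after their values were seen. Clusters used 2000 variable genes without the members, 30 components, 15 neighbours and Leiden resolution 2 (scanpy 1.11.5). Scrublet's automatic threshold marked 4, 11, 2 and 608 barcodes in 0 Gy CD45-negative, 0 Gy CD45-positive, 4 Gy CD45-negative and 4 Gy CD45-positive and was not used. An alternative left out the 149 to 739 barcodes with the highest scores per library. The ratio rule and the gate were tested on simulated counts drawn from pooled profiles of gated cells. Such counts lack the gathering of UMIs in few cells seen here, so its effect on the intervals was not tested. Python 3.11.15, numpy 2.4.6, scipy 1.17.1 and matplotlib 3.10.9 were used. Other alternatives were 2 or 4 markers, clusters in place of gates, median-of-ratios scaling, thinning, the mean of CPM over cells, 20 CPM added and a minimum of 30 counts. Promoter windows of Arg1, Nos2 and Fn1 and protein sequences were not used here.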

Additional observations from a re-analysis of the deposited data

Results flagged for a closer look

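3 genes of the inflammatory list passed the 1.5-fold rule in opposite directions in myeloid classes of the same libraries, and these differences between classes were not tested. Il1b had a ratio of 2.47 (2.14 to 2.85) in classical monocytes and 0.611 (0.531 to 0.702) in nonclassical monocytes, where it stood at 842 and 514 CPM. Cxcl10 had a ratio of 0.140 (0.113 to 0.173) in macrophages and 1.67 (1.41 to 1.99) in classical monocytes. Ccl4 had a ratio of 15.1 (2.53 to 613) in macrophages, from 1 UMI at 0 Gy, against 0.534 (0.365 to 0.780) in classical monocytes and 0.370 (0.233 to 0.574) in nonclassical monocytes.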

How the results depend on the processing

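No paired analysis was possible because each dose and sort had 1 library. In macrophages the ratio of Arg1 (2.41) was 3.54 with clusters in place of gates, 3.71 with thinned cells and 5.65 as a mean of CPM over cells. Among alternatives added after seeing the data it was 3.23 without cells holding a Marco UMI and 0.827 in cluster 33 alone. Spp1 (2.40) was 2.88 as a mean over cells, 2.14 with at least 2 more markers than any other list and 16.1 in cluster 31 alone. Fn1 (1.54) was 2.06 thinned, 1.99 as a mean over cells, 1.73 with the 2-marker margin, 1.98 without Marco cells, 1.83 in cluster 33 and 0.905 in cluster 31. Cx3cr1 (0.434) was 0.603 in clusters and 0.265 thinned. In classical monocytes Arg1 (14.1) was 1.68 in clusters, 37.5 thinned, 68.6 with the 2-marker margin and 2.75 in cluster 4 alone, where Spp1 was 0.918. The cause of each move was not tested.

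In classical monocytes 0 genes were higher and 0 lower with clusters, and 1 higher and 2 lower with thinned cells, against 4 and 1. In nonclassical monocytes 0 were higher with clusters, thinned cells or the 2-marker margin, against 2, and 0 were lower with at least 4 markers per cell or median-of-ratios scaling, against 1. The shares of all genes passing the rule under these settings were not recorded, so nothing is read from these counts. In cDC2 Spp1 had a ratio of 0.901 with at least 4 markers and 0.668 with the 2-marker margin. Over all gene ratios and alternatives, 61 in macrophages, 63 in classical monocytes, 30 in nonclassical monocytes, 37 in cDC2 and 34 in tumour cells stayed within their counting interval, and 26, 14, 10, 8 and 6 did not.

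Limits are the single library per dose and sort, pooled mice, few macrophages and tumour cells, and few UMIs per cell. Nos2, Mrc1 in monocytes and tumour cells, and Arg1 and Fn1 in cDC2 rest on fewer than 150 UMIs and often on 1 cell.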

Other observations

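In fibroblasts, with 40 cells at 0 Gy and 20 at 4 Gy, Fn1 stood at 2001 and 3333 CPM (ratio 1.67, 1.40 to 1.98). At 0 Gy 12 of the 40 fibroblasts had an Fn1 UMI and 1 cell held 155 of the 286. Tmem176a stood in fibroblasts at 629.8 and 954 CPM (1.52, 1.09 to 2.10) and Tmem176b at 882 and 1411 CPM (1.60, 1.22 to 2.09). Spp1 stood there at 266 CPM, with 37 of 38 UMIs in 1 cell, and 124 CPM. In neutrophils, with 289 and 837 cells, Spp1 stood at 69.0 and 156 CPM (2.26, 1.68 to 3.08), Cx3cr1 at 56.0 and 28.9 CPM (0.516, 0.343 to 0.783) and Tmem176b at 69.0 and 21.1 CPM (0.305, 0.199 to 0.465), while Arg1 stood at 20.8 and 22.5 CPM (1.08, 0.601 to 2.05). In T cells Tmem176a stood at 43.1 and 25.2 CPM (0.584, 0.476 to 0.716) and Tmem176b at 46.3 and 27.2 CPM (0.588, 0.483 to 0.715). Spp1 stood in T cells at 0.849 and 14.9 CPM (17.5, 6.66 to 65.5) and Arg1 at 1.49 and 4.33 CPM (2.91, 1.26 to 7.82), all low levels. In NK cells Cx3cr1 stood at 69.6 and 74.3 CPM (1.07, 0.813 to 1.41).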
